A study of Mus musculus with 9 samples.

Results

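The nuclear subunits of mitochondrial complexes II to V are the proteins of succinate dehydrogenase, the cytochrome bc1 complex, cytochrome c oxidase and ATP synthase that are encoded in the nucleus. Members were chosen by gene symbol alone: Sdha to Sdhd, Cyc1, and each protein-coding gene whose symbol starts with Uqcr, Cox4i, Cox5, Cox6, Cox7, Cox8 or Atp5. This gave 48 of the 36528 gene numbers in each file, with 4 genes in complex II, 9 in complex III, 18 in complex IV and 17 in complex V, and all 48 were listed in every file. Pseudogenes were left out. Of 14 pseudogenes with such symbols in the RefSeq table, 3 had a line in the files, with 6 to 11 reads each over all libraries.

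RNA was sequenced from brain myeloid cells sorted on Cd11b, an integrin chain carried by microglia and other myeloid cells. Mice were 11 to 12 months old. The Tau-P301L group, mice with a transgene for tau carrying the P301L mutation, held 5 libraries, with libraries 1 and 2 from females and libraries 3, 4 and 5 from males. The wild-type group of littermates without the transgene held 4 libraries, with libraries 1 and 2 from females and libraries 3 and 4 from males. The promoter of the transgene is not given in the sources used here. Nor is it said that each library came from a different mouse, so p-values measure the spread between these libraries, which may be technical.

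In the respiratory chain, complex II passes electrons from succinate to ubiquinone and is also an enzyme of the tricarboxylic acid cycle. Complex III passes them on to cytochrome c and complex IV from there to oxygen, while complex V uses the resulting proton gradient to make ATP. Complex II is built from nuclear genes alone, whereas each of the other 3 needs subunits from both the nuclear and the mitochondrial genome. Several complex IV subunits also have isoforms known from muscle, heart, lung or testis, which need not be limited to those tissues.

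Libraries held 1.49 to 3.79 M counted reads, a mean of 3.10 ± 0.483 M (SD, n = 4) in wild type and 2.41 ± 0.580 M (SD, n = 5) in Tau-P301L (exact permutation test, two-sided, p = 0.0873, adjusted over 2 measures p = 0.175). Tau-P301L library 5 was the smallest. Mitochondrially encoded genes took 14.01 ± 5.10% and 15.5 ± 5.55% of the reads (exact permutation test, p = 0.698). Summed microglial markers lay between 12550 and 17085 CPM (read counts per 1 M reads, scaled by the TMM method) in wild type and between 10388 and 17663 CPM in Tau-P301L, and all 8 were tested. Markers of other cells were lower, with sums of 122 to 243 against 116 to 237 CPM for 8 neuronal genes and 510 to 700 against 327 to 1441 CPM for 6 oligodendrocyte genes. The oligodendrocyte sum was highest in Tau-P301L library 5. That of 5 neutrophil genes was highest in Tau-P301L library 4, at 199 CPM against 0.341 to 59.3 CPM in the other libraries. Mbp did not follow the oligodendrocyte sum. It had 311, 242, 167 and 241 reads in wild type and 139, 87, 69, 133 and 46 in Tau-P301L. By CPM all Tau-P301L libraries of Mbp lay below all wild-type libraries, as for 1.18% of all tested genes. Mbp is named after its values were seen. Sums of 6 astrocyte genes were 307 to 375 CPM against 302 to 660 CPM, with the 3 Tau-P301L males (592, 521 and 660 CPM) above all wild-type libraries. For 5 endothelial genes the sums were 10.9 to 25.7 against 6.84 to 39.1 CPM with Cldn5 at 0, for 5 border macrophage genes 29.8 to 111 against 37.0 to 93.3 CPM and for 4 monocyte genes 19.5 to 66.8 against 13.3 to 59.4 CPM. Tau-P301L libraries 3 and 5 correlated least with the other libraries, with a mean correlation of 0.854 and 0.844 against 0.874 to 0.900. What these measures add to the values below was not tested, other than by leaving out libraries.

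The 48 genes together held few reads: 1126, 884, 851 and 1246 in wild-type libraries 1 to 4, and 1140, 673, 769, 542 and 407 in Tau-P301L libraries 1 to 5. That is 0.0234 to 0.0409% of a library. In these libraries 3 reads, the upper limit that a count of 0 allows, equal 0.831 to 2.10 CPM, counting error only. Reads were found in all 9 libraries for 29 of the 48 genes, 12 had a mean of at least 20 reads per library, 7 had fewer than 10 reads in all and 2 had none. The filter on low counts kept 31 of the 48, namely all 4 of complex II, 8 of 9 of complex III, 8 of 18 of complex IV and 11 of 17 of complex V.

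Levels of different genes can be set side by side only per length. By mean RPKM (reads per kilobase of gene and per sequenced depth, as rescaled by the authors) over the 9 libraries, Cox6c, a small structural subunit of complex IV, was highest at 7.36. Sdha, the flavoprotein that oxidises succinate, followed at 3.67, then Atp5a1 (alpha subunit of the ATP synthase head) at 3.66, Atp5g3 (c-ring) at 3.32, Atp5b (catalytic beta subunit) at 3.22, Sdhc (membrane anchor) at 2.89 and Uqcrc2 (core protein 2) at 2.81. The order among those from Sdha to Uqcrc2 does not exceed their spread between libraries: Sdha alone had 2.90 ± 0.906 RPKM (SD, n = 4) in wild type and 4.29 ± 0.661 RPKM (SD, n = 5) in Tau-P301L. The median over the 31 tested subunits was 1.76 RPKM, against 1.26 over all 12250 tested genes. By complex, the median over all members was 2.58 RPKM in II, 1.39 in III, 0.479 in IV and 1.24 in V. The members of complex IV include 7 tissue isoforms, which had almost no reads. Over the tested members alone the median was 2.58 RPKM in II, 1.44 in III, 1.92 in IV and 1.41 in V, so the order depends on the genes included.

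Partners of one complex, which are assembled in fixed proportions as proteins, thus differed widely in counted reads per length. In complex IV the range over all members ran from 0 to 7.36 RPKM, but the genes at 0 were the tissue isoforms Cox4i2 and Cox8c. Among its tested members, which the filter limits to higher counts, the range was 0.87 to 7.36 RPKM. Cox5b, a zinc-binding subunit found in all tissues, had 1, 2, 0 and 4 reads in wild-type libraries 1 to 4 and 2, 5, 0, 2 and 0 in Tau-P301L libraries 1 to 5, and Cox7a2 had 0, 4, 3 and 9 reads against 3, 3, 0, 1 and 0. Cox5b did not exceed 5 reads in any library and Cox7a2 did not exceed 9.

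Counts of reads that align to only 1 place can depend on how much of a transcript is shared with other genes. The shared part of each transcript is therefore given beside the levels. Of all 50-base stretches (50-mers) in the GENCODE M21 transcripts of each member, 27 of the 48 genes shared at least 1 with another gene and 21 with an annotated pseudogene. Atp5l, subunit g of ATP synthase, shared most: 84.9% of its 50-mers lay also in other genes, 12 of them pseudogenes, and it had 7 reads. Next came Atp5o at 47.6%, Uqcrb at 43.4%, Atp5g2 at 38.4%, Atp5pb at 37.6%, Atp5h at 36.9%, Cox5a at 32.1%, Uqcrc2 at 24.2%, Cox7c at 23.0% and Cox5b at 21.8%. A shared 50-mer can lie at a second place in the genome or in a gene that overlaps at the same place. The 2 cases were not separated, so how far these counts are affected is not known. Uqcrc2 and Cox5b each shared with 1 gene and with 0 pseudogenes, and Uqcrc2 overlaps another gene. Among the 41 members that are not tissue isoforms, the median share was 0.857% in those tested and 11.0% in the 10 that were not. Across these 41 genes Spearman's rho between mean RPKM and the shared percentage was -0.29, and between mean RPKM and transcript length 0.10, as a description of genes measured in the same libraries. Cox7a2 shared 0% and had 23 reads. The read length of the libraries is not given in the sources used here, and copies outside the annotation were not searched for.

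**Figure D1:**
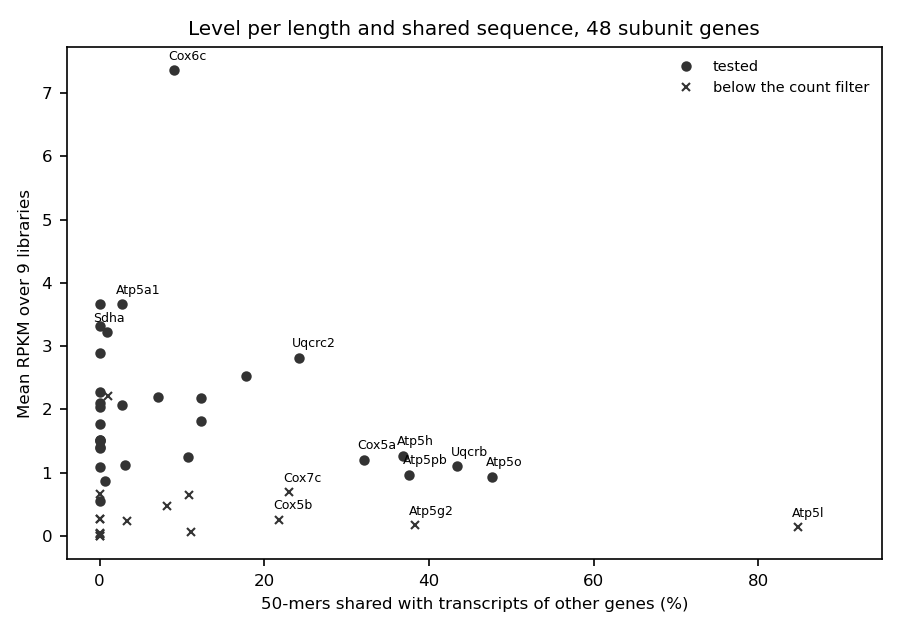
Mean RPKM over the 9 libraries (vertical axis) against the percentage of 50-mers shared with transcripts of other genes (horizontal axis), 1 point per subunit gene, with circles for the 31 tested genes and crosses for the 17 below the count filter. Cox6c lies highest at 7.36 RPKM, and Atp5l lies far right at 84.9% with a level near 0.

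In addition, 16 members overlap another gene, and counting is not stated to use strand. Cox6a2 lies across Itgad, a myeloid integrin gene, Cox7a2 across Tmem30a and Gm51685, Atp5j across Gabpa, Atp5a1 across Haus1, Uqcrc2 across Pdzd9 and Uqcrq across Gdf9. Overlap was taken over whole genes from start to end, so it need not lie in transcript sequence of both genes. The share of transcript sequence found also in other genes was 0% for Cox7a2 and Uqcrq, 2.76% for Atp5a1 and 3.33% for Cox6a2. It was 10.7% for Atp5j and 24.2% for Uqcrc2. Reads of such pairs cannot be told apart where both transcripts cover the same bases, and how many reads that affects was not tested.

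Many genes of oxidative phosphorylation are known targets of nuclear respiratory factor 1 (NRF1) and of the ETS factor GABP. RefSeq promoters of build GRCm38.p6, taken as the 250 bases before the start, were matched for 36 of the 48 members. Members and coding genes were counted when any of their promoters held the motif, while the share of all promoters counts single promoters and is not directly comparable. The NRF1 motif GCGCNTGCG, searched on both strands, was found for 9 of the 36 members (25.0%), against 7.99% of 17492 coding genes and 5.19% of all 32851 promoters. It was found for 2 of 3 members of complex II, 0 of 5 of complex III, 1 of 13 of complex IV and 6 of 15 of complex V. The ETS motif CCGGAAG was also in 9 of 36 (25.0%), against 10.2% of coding genes and 6.91% of all promoters, and the YY1 motif AAGATGGCG was in 1 of 36 (2.78%), in Atp5j, against 0.840% and 0.606%. In all, 14 of the 36 held at least 1 of the 3. The last 3 letters of the ETS motif can be the first 3 of the YY1 motif. A match is a run of letters and not a measured binding site.

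The 30-base windows around the NRF1 match nearest to the start are shown because the motif was found in genes of complexes II, IV and V and was not used to choose the members. Each reads 5′ to 3′ on the gene's strand, here the minus strand for all 9, with the motif in capitals.
Sdha, chr13:74350241-74350270: cgacacccgcgcgactcggtgCGCAAGCGC
Sdhd, chr9:50603908-50603937: cgctggggtgCGCACGCGCggtggcagcgc
Cox6a1, chr5:115349055-115349084: ggataaagtgCGCAGGCGCtggagttccta
Atp5c1, chr2:10080433-10080462: cgcctgagctcccgCGCACGCGCactgagt
Atp5g2, chr15:102671069-102671098: gctccggccgCGCATGCGCagagccttccc
Atp5h, chr11:115420040-115420069: accccgacggCGCAGGCGCcgcgcccgcct
Atp5k, chr5:108434429-108434458: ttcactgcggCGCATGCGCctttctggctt
Atp5l, chr9:44920963-44920992: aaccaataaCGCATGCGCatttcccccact
Atp5md, chr19:47090825-47090854: tcaacgcaatCGCACGCGCagaacagggag
The genotype estimates of the 5 tested genes in this group, given below, lay on both sides of 0: Sdha 0.54, Atp5h 0.57, Atp5c1 -0.37, Sdhd -0.47 and Cox6a1 -0.51 on the log2 scale.

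The comparison of Tau-P301L with wild type asked whether the sorted cells differed in the expression of these subunits. No difference passed the test at this depth. Of the 31 tested members 0 passed an adjusted p of 0.05 in edgeR's quasi-likelihood test with sex as a term, where the background was 1 of 12250 genes (0.00816%). At an unadjusted p under 0.05 the count was again 0 of 31, against 778 of 12250 genes (6.35%), and DESeq2 called 0 members, against 24 of 12230 genes (0.196%). Adjusted p-values of the members ran from 0.789 to 0.971. No member had all Tau-P301L libraries below all wild-type libraries (background 1.18%) or all above (1.31%). In bulk samples, fewer cells of a type and less RNA per cell cannot be told apart.

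Point estimates were lower in Tau-P301L for 22 of the 31 members and higher for 9. That is 71.0% lower, against 50.1% of all tested genes, and the median log2 fold change was -0.45, against -0.00070 over all tested genes. The count was 8 of 12 with a median of -0.40 among genes with a mean of at least 20 reads, and 14 of 19 with a median of -0.51 among the others. Members share libraries and depth, so these counts describe the estimates and carry no test. By complex the median was -0.36 in II (3 of 4 lower), -0.59 in III (6 of 8 lower), -0.53 in IV (6 of 8 lower) and -0.18 in V (7 of 11 lower). Without Tau-P301L library 2 the median of complex V was 0.03, and without wild-type library 3 that of complex II was -0.02.

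Summed levels over all members of a complex overlapped between the genotypes in each of the 4. For complex II the sum was 62.5, 64.8, 79.6 and 83.6 CPM in wild-type libraries 1 to 4 and 111.8, 71.8, 80.3, 57.7 and 79.6 CPM in Tau-P301L libraries 1 to 5. Its means were 72.6 ± 10.5 CPM (SD, n = 4) and 80.2 ± 19.9 CPM (SD, n = 5), and Tau-P301L library 1 stood highest. Sdha supplied 55.4% of the reads of complex II, and without it the log2 ratio of the means changed from 0.14 to -0.35.

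Complex III summed to 61.6, 55.9, 69.6 and 59.0 CPM in wild type and to 69.9, 38.2, 51.1, 44.9 and 43.3 CPM in Tau-P301L. All Tau-P301L libraries but library 1 lay below the lowest wild-type library, with means of 61.5 ± 5.88 CPM (SD, n = 4) and 49.5 ± 12.3 CPM (SD, n = 5) and a log2 ratio of -0.31. Complex IV summed to 69.3, 60.4, 63.1 and 53.7 CPM against 48.6, 33.6, 60.5, 55.2 and 68.4 CPM. Here the 2 Tau-P301L females were lowest, the Tau-P301L males lay within the range of wild type, and the means were 61.6 ± 6.45 CPM (SD, n = 4) and 53.3 ± 13.2 CPM (SD, n = 5).

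Complex V summed to 151.7, 120.4, 113.2 and 148.7 CPM in wild type and 131.8, 96.8, 152.9, 74.0 and 92.9 CPM in Tau-P301L. Tau-P301L libraries 2, 4 and 5 lay below the wild-type range and library 3 just above it, with means of 133.5 ± 19.5 CPM (SD, n = 4) and 109.7 ± 32.0 CPM (SD, n = 5). Over all 48 genes the sums were 345.1, 301.4, 325.6 and 345.0 CPM in wild type and 362.1, 240.3, 344.8, 231.8 and 284.2 CPM in Tau-P301L. The spread was wider in Tau-P301L than in wild type, at an SD of 59.3 against 20.7 CPM around means of 293 and 329 CPM, a difference in spread that was not tested.

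**Figure D2:**
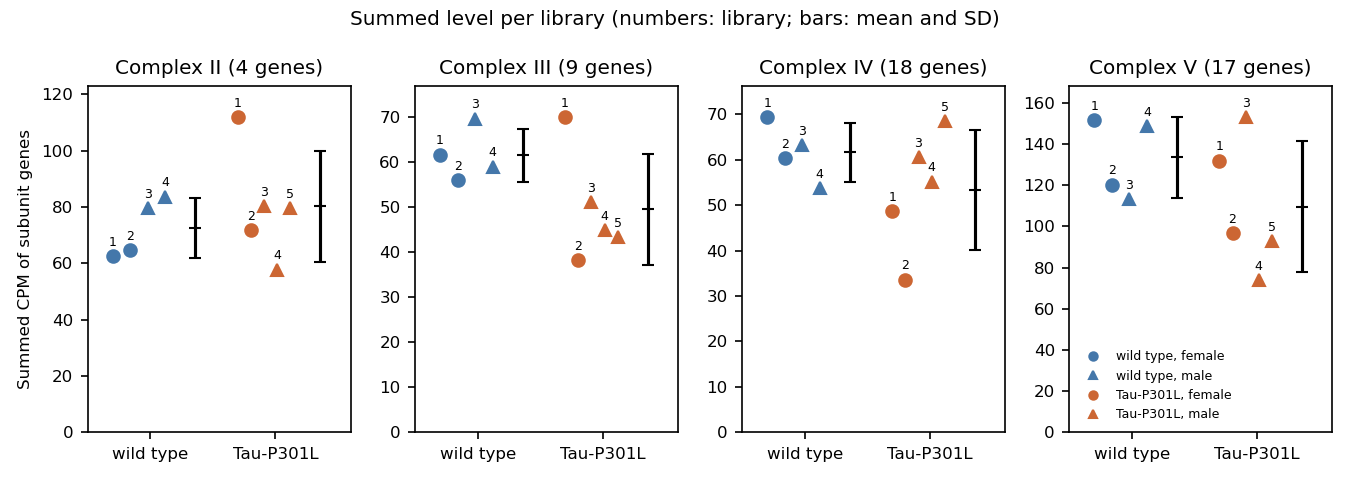
Summed CPM of all subunit genes of each complex (vertical axes, starting at 0) in the 4 wild-type and 5 Tau-P301L libraries, with circles for females, triangles for males, library numbers beside the points and bars for mean and SD. The groups overlap in all 4 panels, and Tau-P301L library 1 is the highest point of complexes II and III.

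Complex II holds 2 catalytic subunits and 2 membrane anchors. Sdha was at 33.1, 31.4, 23.3 and 49.8 CPM in wild-type libraries 1 to 4 and at 59.4, 45.7, 53.8, 39.8 and 52.4 CPM in Tau-P301L libraries 1 to 5, from 61 to 187 reads. Tau-P301L libraries 1, 3 and 5 were above the highest wild-type library, and libraries 2 and 4 lay between that library and the rest of the wild-type group. The means were 34.4 ± 11.1 CPM (SD, n = 4) and 50.2 ± 7.61 CPM (SD, n = 5), and the log2 fold change was 0.54 (SE 0.31, 95% interval -0.11 to 1.19, edgeR adjusted p = 0.789). This was the smallest p of the 31 members, and the only higher estimate in complex II.

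Sdhb, the iron-sulfur subunit that hands electrons on from Sdha, was at 6.13, 7.84, 8.80 and 7.20 CPM in wild type and at 6.99, 9.28, 8.97, 2.99 and 2.09 CPM in Tau-P301L (log2 fold change -0.30, SE 0.58). Tau-P301L libraries 4 and 5 were the low ones, on 7 and 3 reads. Of the anchors, Sdhc was at 13.2, 12.3, 33.7 and 9.97 CPM against 18.1, 5.00, 8.52, 11.5 and 21.6 CPM (-0.42, SE 0.49), and its estimate was 0.11 without wild-type library 3, the highest. Sdhd was at 10.1, 13.3, 13.8 and 16.6 CPM against 27.3, 11.8, 8.97, 3.42 and 3.49 CPM (-0.47, SE 0.54). The Tau-P301L values of Sdhd spanned all wild-type values, and those of Sdhc all but that library.

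In complex III, Uqcrc1 and Uqcrc2 are the core proteins, Cyc1 carries the haem that reduces cytochrome c, and Uqcrfs1 is the Rieske iron-sulfur protein. Uqcrc1 was at 11.3, 5.80, 14.2 and 6.92 CPM in wild type and at 7.62, 4.64, 1.35, 5.99 and 9.08 CPM in Tau-P301L (log2 fold change -0.74, SE 0.59, edgeR adjusted p = 0.840). Uqcrc2 was at 22.4, 26.9, 17.6 and 17.4 CPM against 27.0, 13.2, 24.7, 23.1 and 23.7 CPM (0.10, SE 0.38). The paired core proteins thus gave estimates on opposite sides of 0, each within its error, and 24.2% of the 50-mers of Uqcrc2 are shared with another gene.

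Cyc1 was at 5.82, 3.75, 16.1 and 11.6 CPM in wild type and at 7.31, 11.8, 4.48, 4.28 and 2.09 CPM in Tau-P301L (-0.62, SE 0.64). Its Tau-P301L females lay above the wild-type females and its Tau-P301L males below the wild-type males. Uqcrfs1 had 18, 6, 15 and 10 reads against 14, 2, 7, 6 and 0 reads, or 4.02 ± 1.88 CPM (SD, n = 4) against 2.17 ± 1.81 CPM (SD, n = 5), with a log2 fold change of -0.82 (SE 0.85). Tau-P301L libraries 2 and 5 were lowest, the groups overlapped, and the estimate was -1.46 without Tau-P301L library 1.

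Among the small subunits of complex III, Uqcrb, which binds ubiquinone, had 0, 10, 3 and 6 reads in wild type and 19, 2, 13, 4 and 0 in Tau-P301L (0.92, SE 1.06). Each group held 1 library with no read of it, and the estimate was 0.22 without Tau-P301L library 1 and 1.76 without wild-type library 2. Uqcrq, Uqcr10 and Uqcrh, which have accessory roles, had estimates of -0.64, -0.55 and -0.53, on 79, 99 and 122 reads in all, and Uqcr11 was below the filter with 31 reads.

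Complex IV members are all accessory to the catalytic core, which is encoded by the mitochondrial genome. Cox4i1, the common isoform of the subunit through which ATP acts on the enzyme, was at 12.0, 4.77, 6.50 and 5.54 CPM in wild type and at 5.72, 3.21, 3.59, 6.41 and 3.49 CPM in Tau-P301L (-0.63, SE 0.60, edgeR adjusted p = 0.864). Wild-type library 1 was high and the rest overlapped. Cox5a, which sits with Cox4i1 in the first assembly step, had 28, 13, 16 and 9 reads in wild type and 13, 0, 3, 6 and 2 in Tau-P301L. Tau-P301L libraries 1 and 4, at 4.13 and 2.57 CPM, lay within the wild-type range of 2.49 to 8.58 CPM and the other 3 below it, and the means were 5.41 ± 2.58 CPM (SD, n = 4) and 1.89 ± 1.55 CPM (SD, n = 5). Its log2 fold change of -1.42 (SE 0.84, 95% interval -3.18 to 0.35, edgeR adjusted p = 0.789) was the lowest estimate of the 31, and 32.1% of its 50-mers are shared. Leaving out single libraries moved it between -2.22 (without Tau-P301L library 1) and -1.002 (without library 2).

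Cox6b1, which lies where the monomers of the complex IV dimer meet, had 13, 18, 14 and 11 reads against 4, 6, 4, 5 and 10 reads (-0.84, SE 0.76). In CPM, Tau-P301L library 5 at 6.98 was above all wild-type libraries and the other Tau-P301L libraries, at 1.27 to 2.14, were below all of them. Cox7a2l, which takes part in joining complexes III and IV into supercomplexes, was at 19.6, 10.6, 16.1 and 10.5 CPM against 8.89, 6.43, 10.3, 8.98 and 16.1 CPM (-0.55, SE 0.46). All Tau-P301L libraries but 1 lay below the lowest wild-type value of 10.5 CPM, while library 5 was level with wild-type library 3. Cox6a1 had 13, 14, 28 and 13 reads against 18, 9, 7, 7 and 7 (-0.51, SE 0.64, and 0.02 without wild-type library 3), and Cox8a had 19, 22, 9 and 14 against 8, 4, 6, 29 and 2 (-0.45, SE 0.80). The 29 reads of Cox8a were in Tau-P301L library 4, the library with the highest neutrophil markers, a link that was not tested. Without that library the estimate was -1.27.

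Higher estimates in complex IV were those of Cox7b and Cox6c. Cox7b, needed for assembly of the complex, had 4, 3, 13 and 9 reads in wild type and 19, 16, 9, 9 and 4 in Tau-P301L (0.96, SE 0.76, edgeR adjusted p = 0.840). Its Tau-P301L females lay above all wild-type libraries and its males within the range of wild type. Cox6c was at 10.4, 15.7, 3.83 and 16.1 CPM against 12.1, 7.50, 31.4, 9.41 and 30.02 CPM (0.47, SE 0.55). The high values were those of Tau-P301L libraries 3 and 5, which also had the highest astrocyte marker sums, a link that was not tested, and without both of them the estimate was -0.29.

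Isoforms of complex IV known from other tissues were almost without reads. All 7 together had 37 reads in the 9 libraries, against 568 for the 6 common partners Cox4i1, Cox6a1, Cox6b1, Cox7a2, Cox7b and Cox8a. Cox4i2, the lung isoform, and Cox8c, a testis isoform, had 0 of 24.5 M reads, which allows a level of up to 0.123 CPM over all libraries. The muscle isoforms Cox8b and Cox7a1 had 1 and 2 reads and the testis isoform Cox7b2 had 1, and all 4 muscle markers (Acta1, Ckm, Myh1 and Actc1) were at 0. Cox6a2, another muscle isoform, had 4, 0, 0 and 3 reads in wild type and 0, 3, 0, 6 and 0 in Tau-P301L. The gene overlaps Itgad, and whether any of these reads came from Itgad was not tested.

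Cox6b2, known as the testis isoform of Cox6b1, had 3, 4, 10 and 0 reads in wild type and 0 in each of the 5 Tau-P301L libraries. The reads were thus in 3 of 4 wild-type libraries, and the groups touch at 0 in wild-type library 4. Pooled over libraries the wild-type level was 1.37 CPM, and the limit of 3 reads over the Tau-P301L group, 0.251 CPM, was 5.45-fold lower. That ratio leaves out the counting error of the 17 wild-type reads and the spread between libraries, so it is not a lower bound. Wild-type library 3 held 10 of the 17 reads, and without it the wild-type level was 0.714 CPM and the ratio 2.84-fold. The gene was below the filter. In the edgeR fit without a filter its adjusted p was 0.440, the smallest of any member under any alternative, and so past no threshold.

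The head of ATP synthase is formed by alpha and beta subunits around the gamma shaft. Atp5a1, the alpha subunit, was at 47.8, 33.1, 41.7 and 56.2 CPM in wild type and at 43.5, 20.0, 52.0, 14.5 and 20.9 CPM in Tau-P301L. Tau-P301L libraries 2, 4 and 5 were below the lowest wild-type library and libraries 1 and 3 within the range, and the means were 44.7 ± 9.77 CPM (SD, n = 4) and 30.2 ± 16.5 CPM (SD, n = 5). The log2 fold change was -0.56 (SE 0.38, 95% interval -1.36 to 0.23, edgeR adjusted p = 0.806). Atp5b, the beta subunit, was at 33.4, 25.6, 22.6 and 25.2 CPM against 20.0, 27.1, 29.1, 15.0 and 26.5 CPM (-0.16, SE 0.36). Its partner in the head thus had the smaller difference, and a difference between the 2 estimates was not tested.

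Atp5c1, the gamma subunit, was at 15.6, 9.89, 6.12 and 8.03 CPM against 8.26, 7.86, 5.83, 8.12 and 5.59 CPM (-0.37, SE 0.50), with wild-type library 1 highest. Atp5d, the delta subunit of the shaft, had 17, 16, 27 and 25 reads in wild type and 14, 18, 3, 16 and 5 in Tau-P301L (-0.60, SE 0.62). Atp5pb, subunit b of the outer stalk that holds the head still, had 15, 36, 16 and 33 reads against 28, 8, 16, 12 and 3 (-0.58, SE 0.60), and shares 37.6% of its 50-mers. For each of these 3 the groups overlapped.

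Atp5h and Atp5o, also of the outer stalk, had the highest estimates in complex V. Atp5h had 22, 4, 8 and 34 reads in wild type and 18, 25, 28, 8 and 12 in Tau-P301L (0.57, SE 0.64, edgeR adjusted p = 0.890), and Atp5o had 5, 10, 2 and 14 against 13, 16, 10, 2 and 3 (0.50, SE 0.81, and 1.21 without wild-type library 4). Both share over 30% of their 50-mers with other genes, at 36.9 and 47.6%. Among the rest, Atp5e (epsilon subunit) and Atp5j2 (subunit f) had estimates of -0.33 and -0.18 on 87 and 95 reads, and Atp5j (coupling factor 6) one of 0.22 on 108 reads.

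Atp5g1, Atp5g2 and Atp5g3 encode the same mature c subunit, the ring through which protons pass. Of their 276 reads, 93.1% were from Atp5g3. Atp5g3 was at 17.5, 7.84, 6.50 and 8.03 CPM in wild type and at 16.5, 7.86, 15.7, 3.42 and 9.78 CPM in Tau-P301L (0.18, SE 0.53). Atp5g2 had 13 reads in all, with 38.4% of its 50-mers shared, and Atp5g1 had 6. Atp5g3 itself shared 0%, and its estimate was -0.11 without Tau-P301L library 3.

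**Figure D3:**
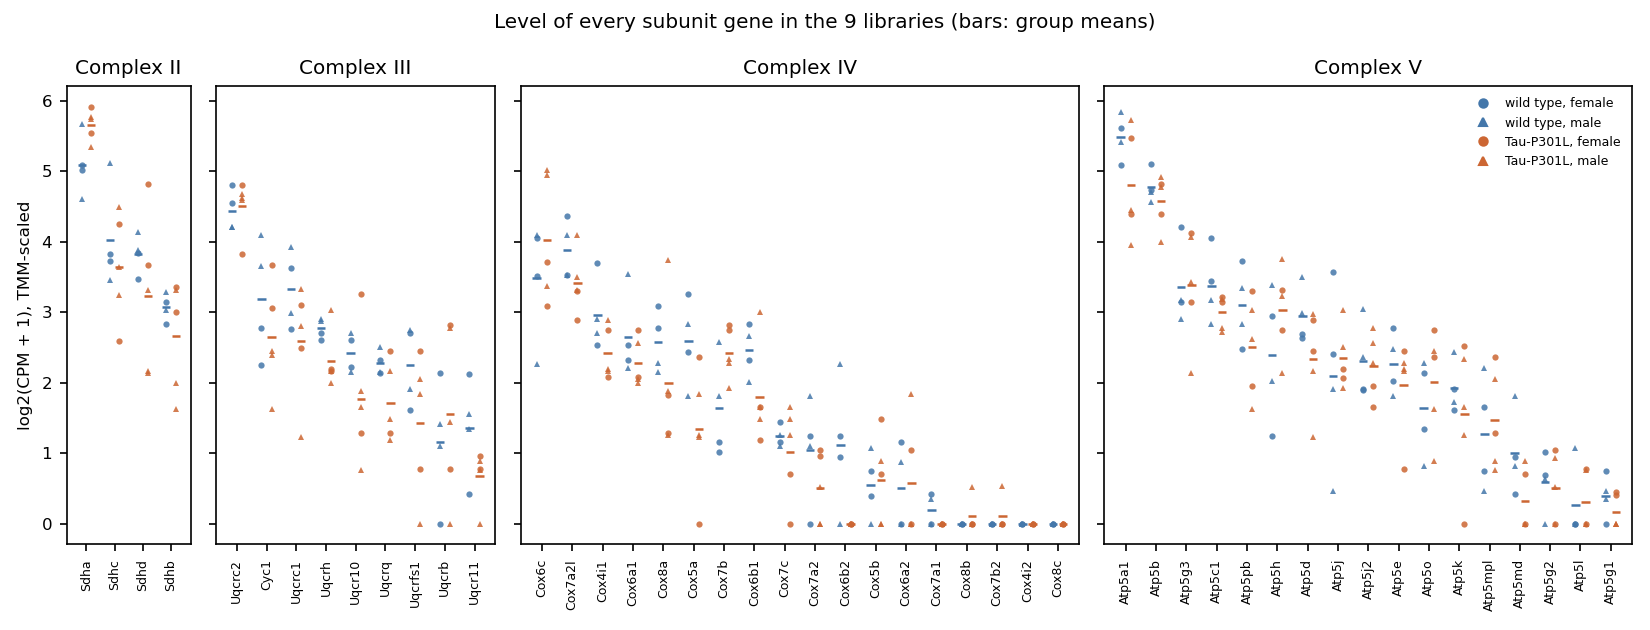
Level of each of the 48 subunit genes as log2(CPM + 1) (vertical axis) in every library, with blue for wild type, orange for Tau-P301L, circles for females, triangles for males and bars for group means. Genes are ordered by total reads over the 9 libraries within a complex, and for no gene are the 2 groups apart.

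**Figure D4:**
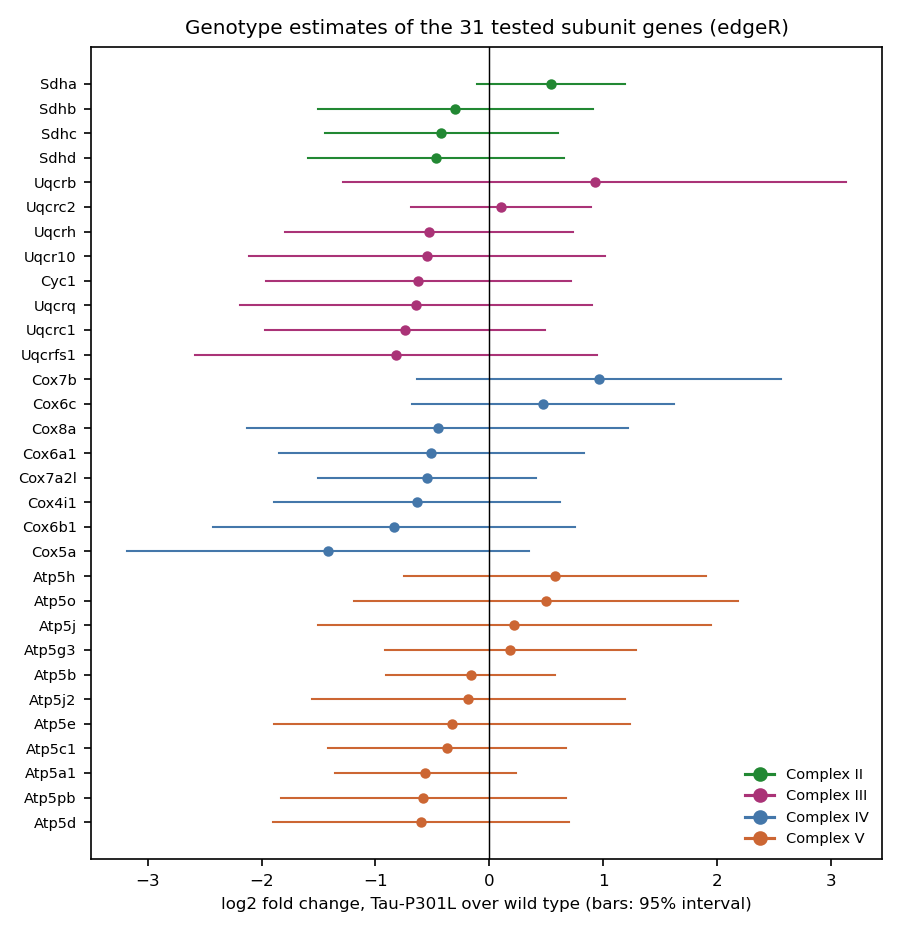
Log2 fold change of Tau-P301L over wild type with its 95% interval for the 31 tested subunit genes (edgeR), coloured by complex. All 31 intervals include 0, and 22 of the 31 points lie to the left of it.

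Sex, males over females in the same fit, gave 0 of 31 calls among the members, against 6 of 12250 genes (0.0490%). The median of the members was -0.07. At an unadjusted p under 0.05 there were 0 of 31 members, against 298 of 12250 genes. DESeq2 called 7 genes for sex, of which 0 were members. At such low shares over all genes, counts of 0 are not a result about the members. For the product of genotype and sex 0 of 33 members passed, as did 0 of 13302 genes (0%) in edgeR, and DESeq2 called 4 genes, of which 0 were members. At an unadjusted p under 0.05 there were 2 of 33 members, against 526 of 13302 genes, and no excess was tested. The 2 members were Cyc1, with an interaction of -2.88 (SE 1.12), and Sdhd, with -2.24 (SE 0.97), both at an edgeR adjusted p of 0.99999. In Sdhd the Tau-P301L females had 27.3 and 11.8 CPM and the Tau-P301L males 8.97, 3.42 and 3.49 CPM, against 10.1 to 16.6 CPM in wild type. With 2 or 3 libraries per sex and genotype such estimates are imprecise.

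The mitochondrial genome encodes 6 subunits of complexes III to V, and among them CYTB and COX1 held nearly all reads. Together the 6 genes summed to 29434 ± 13688 CPM (SD, n = 4) in wild type and 27499 ± 10544 CPM (SD, n = 5) in Tau-P301L. CYTB, cytochrome b of complex III, held 69.0% of those reads and COX1, the catalytic core of complex IV, 30.9%. COX2, COX3, ATP6 and ATP8 had 17 to 129 reads in all, no more than many nuclear subunits. These are counts of uniquely aligned reads, and sequence that the 6 genes share with the nuclear genome was not examined. The counts and the estimates below therefore need not reflect the levels of these transcripts. The ratio of these reads to the reads of the 48 nuclear genes was 131, 66.0, 112 and 47.2 in wild-type libraries 1 to 4 and 52.1, 64.7, 121, 139 and 103 in Tau-P301L libraries 1 to 5. The groups overlapped, and Tau-P301L library 4 was highest. Of the 6 genes 4 were tested and 0 called, with estimates of -0.16 for CYTB, -0.35 for COX1, 0.74 for ATP6 and 0.92 for ATP8.

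Assembly factors are helper proteins that build the complexes without staying in them. Of 38 assembly factors 27 were tested and 0 called (1 at an unadjusted p under 0.05, against 6.35% of all tested genes), 11 were lower and 16 higher, and the median was 0.12 against -0.45 for the subunits. The 2 medians were not compared by a test. By complex there was 1 of 4 tested for II (Sdhaf2, -0.22), 4 of 6 for III (median 0.19), 18 of 23 for IV (median 0.14) and 4 of 5 for V (median 0.32). Cox20, which helps to mature the mitochondrially encoded subunit COX2, was at 12.3 ± 3.30 CPM (SD, n = 4) against 27.0 ± 16.2 CPM (SD, n = 5), with a log2 fold change of 1.14 (SE 0.45, edgeR adjusted p = 0.737). Atpaf1, a chaperone of the ATP synthase beta subunit, had 10, 2, 9 and 11 reads in wild type and 15, 12, 17, 14 and 16 in Tau-P301L (1.29, SE 0.67, edgeR adjusted p = 0.789). All 5 Tau-P301L libraries of Atpaf1 were above all 4 wild-type libraries, as for 1.31% of all tested genes, and it was the only assembly factor of which this held.

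Complex I, which feeds electrons from NADH into the chain, has nuclear subunits that were described in the same way. Of 40 genes 26 were tested and 0 called, 3 had an unadjusted p under 0.05 (6.35% of all tested genes did), 21 were lower and 5 higher, and the median was -0.34. Their sum was 214 ± 22.9 CPM (SD, n = 4) in wild type and 175 ± 24.2 CPM (SD, n = 5) in Tau-P301L, and those with the smallest p were Ndufb9 at -2.35 and Ndufa2 at -1.72. All Tau-P301L libraries were below all wild-type libraries for 2 of the 26 (background 1.18%), Ndufv1 at -1.77 and Ndufa10 at -0.96, which are named after their values were seen. Of 13 enzymes of the tricarboxylic acid cycle 12 were tested and 0 called, with 9 lower and a median of -0.26. Their smallest p-values were those of Idh3g at -0.67 and Mdh2 at -0.59.

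All 12 listed regulators of mitochondrial biogenesis were tested and 0 called, with 5 lower, 7 higher and a median of 0.12. Gabpa, the DNA-binding chain of GABP, had an estimate of 0.67 (SE 0.31, edgeR adjusted p = 0.776), and Ppargc1a, a coactivator of mitochondrial genes, one of 1.16 (SE 0.70), with 110 reads in Tau-P301L library 5 and 7 to 56 in the other Tau-P301L libraries. Proteins of the mitochondrial membranes and of import were tested for 10 of 14 and called for 0, with 2 lower, 8 higher and a median of 0.23. Phb2, a prohibitin of the inner membrane, was at -0.98 and Hspd1, the matrix chaperonin, at 0.74. Of cytochrome c (Cycs and the testis form Cyct) and Ndufa4, a subunit associated with complex IV, only Ndufa4 was tested, at 0.34. In none of these lists did a gene pass the adjusted threshold of 0.05 with edgeR.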

How the data were processed

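Each of 9 files covered 1 library and listed genes by Entrez number. The deposited counts are whole numbers of uniquely aligned reads per gene model, per the file headers, and the RPKM values beside them were rescaled by the authors with a size factor per library, per the file headers. Alignment used GSNAP and GRCm38, per the submitters' processing notes, and the sources used here give no versions, annotation, read length or strand. Symbols, biotypes and promoters came from RefSeq tables of GRCm38.p6 (31049 of 36528 gene numbers matched), and transcripts for the 50-mers from GENCODE M21.

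The main test was edgeR 4.0.16 (R 4.3.3) on counts: TMM scaling, the default filter on low counts for the design, a robust quasi-likelihood F test, sex as a term, and Benjamini-Hochberg adjustment over 12250 genes at 0.05. The interaction came from a fit with the product term over 13302 genes. SEs were derived from the F statistic. CPM are TMM-scaled, and sums over a complex take all members. RPKM served only to compare genes. Alternatives were DESeq2 1.42.0, limma-voom (limma 3.58.1), other scalings and filters, each sex alone and leaving out libraries. Leaving out Tau-P301L libraries 3 and 5 together was chosen after seeing the data. The fit was tested on simulated data.

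Members, lists and tests were chosen with earlier results of these data known. Named with full values were all of complex II, in each other complex the 3 lower and 2 higher members of smallest p, the core subunits, the tissue isoforms with their partners and the c-subunit genes, and from each further list at most the 2 genes of smallest p. Atp5e, Atp5j, Atp5j2, Uqcr10, Uqcr11, Uqcrh and Uqcrq are given in brief outside that rule. Promoter sequences of Sdhc, Cyc1, Uqcrb, Uqcrc2, Uqcrq, Cox4i1, Cox4i2, Cox6a2, Cox6c, Cox8c, Atp5a1 and Atp5mpl were not used here.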

Additional observations from a re-analysis of the deposited data

Results flagged for a closer look

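For 36 levels (31 tested members and 5 sums), 72 groups of 4 or 5 libraries were examined for 1 library standing apart from the rest of its group (Dixon's criterion), and 9 did. For independent, normally distributed values chance gives this in about 1 in 20 groups. Many of these levels rest on low counts, the groups share libraries and the sums contain the members. That rate need not apply here, and no excess was tested. In wild type, library 3 was apart for Sdhc, at 33.7 CPM against 9.97 to 13.2 CPM in the other 3, and for Cox6a1, at 10.7 against 3.60 to 4.77 CPM. Library 1 was apart for Atp5g3, at 17.5 against 6.50 to 8.03 CPM.

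In Tau-P301L, library 1 was apart for Uqcr10, at 8.58 CPM against 0.698 to 2.69 CPM. Library 2 was low for Uqcrc2, at 13.2 against 23.1 to 27.0 CPM, and for Atp5e, at 0.714 against 3.49 to 4.45 CPM. Library 3 was apart for Uqcrh, at 7.17 against 2.99 to 3.57 CPM, library 4 for Cox8a, at 12.4 against 1.40 to 2.69 CPM, and library 5 for Cox6b1, at 6.98 against 1.27 to 2.14 CPM. These 9 gaps fell on 7 of the 9 libraries.

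For 2 genes all Tau-P301L libraries of one sex lay above all wild-type libraries of that sex, and all Tau-P301L libraries of the other sex lay below all wild-type libraries of theirs. How often this holds among all tested genes was not counted. With 2 or 3 libraries per sex and genotype it can arise by chance, so the 2 genes are given as values only. The log2 difference between genotypes in females minus that in males was 2.55 for Cyc1 and -2.17 for Atp5j. The difference was not tested by this count, and the edgeR interaction, coded as males minus females, gave -2.88 for Cyc1 and 2.74 for Atp5j, both with an edgeR adjusted p of 0.99999.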

How the results depend on the processing

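Under 20 other settings 0 members passed the threshold, and the median over the tested members stayed between -0.54 and -0.23. Of 490 other estimates of the 25 named tested members 469 kept their direction, and 14 of the 25 did so in all. Over all genes, genotype calls numbered 1 in the main test, 24 with DESeq2, 26 without a filter, 0 in females, in males or without Tau-P301L libraries 3 and 5, and 0 to 1 leaving out 1 library. Sex calls were 16 without a filter and 10 without Tau-P301L libraries 3 and 5. Interaction calls were 4 with DESeq2, 22 without a filter and 0 to 4 leaving out 1 library. In females alone the median of complex II was 0.46 and of complex IV -0.90. The log2 ratio of the mean summed CPM, Tau-P301L over wild type, moved in females to 0.53 for complex II and to -0.66 for complex IV. Also in females alone, Atp5d was 0.022, Atp5g3 -0.055, Cox6a1 0.032, Cox6c -0.41, Cyc1 0.98, Sdhb 0.21, Sdhd 0.74 and Uqcrc2 -0.29. In males alone the median of complex IV was -0.18, the log2 ratio of the sums of complex II -0.17, Cox7b -0.049 and Cox8a 0.61. Without Sdha the log2 ratio of the sums of complex II was -0.35. With limma-voom Atp5g3 was -0.16 and Uqcrc2 -0.017. Without Tau-P301L libraries 3 and 5, Atp5g3 was -0.40, Cox6c -0.29, Cyc1 0.048 and Uqcrc2 -0.015. Leaving out 1 library, the median of complex II ran from -0.60 to -0.017, that of complex V from -0.34 to 0.034, Atp5g3 from -0.11 to 0.48, Cox6a1 from -0.78 to 0.019, Cox6c from -0.014 to 0.77, Sdhc from -0.89 to 0.11 and Uqcrc2 from -0.010 to 0.33. Causes of these moves were not tested beyond the fewer libraries or genes that define a setting. No paired analysis was possible because the labels carry no replicate numbers and the library numbers here only follow accession order. Depth is one limit: 19 of the 31 tested members had a mean under 20 reads, and 17 of 48 were not tested.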
